A study of Mus musculus with 18 samples.

Results

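The fasting response of hepatocyte nuclei taken from frozen mouse liver was described from 6 RNA-seq libraries of the 18 in the series, 3 of fasted and 3 of fed mice, over all genes of the deposited count table. All 6 came from frozen liver of female HEP-INTACT mice, a line whose hepatocyte nuclei carry a tag by which they can be immunoprecipitated (IP). Fasted mice had no food for 16 h from zeitgeber time 12, the onset of their active phase. Fed mice ate ad libitum and were killed at the same time of day. Age, strain background and the promoter or Cre line behind the tag are not given in the sources used here. In the titles each library of a group has a number of its own, which recurs in the fresh liver libraries, and it was taken as 1 mouse per library. Each title also begins with a MUC number, MUC6499 for 1 fed library and MUC5305 to MUC5309 for the rest of the 6. What the MUC number stands for is not given, and the column letter of that fed library is not known.

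The count table calls the libraries of a group A, B and C, and 3 values in a row are given in that order. Levels of genes are CPM, counts scaled to each library's total and a scaling factor (TMM) set over the 6 libraries. They span the whole transcribed region, introns included, so they are levels of nuclear RNA and were compared between groups, not between genes. Summed markers of cell types were scaled to the total alone. Levels of single genes in supernatant nuclei are on a scale set over all 18 libraries. Of 20105 genes, 12926 had enough counts to be tested, and 2918 of them (22.6%) passed an adjusted p under 0.05 by edgeR's quasi-likelihood test. In fasted nuclei 1421 (11.0% of those tested) were higher and 1497 (11.6%) lower. The median log2 fold change over all tested genes was 0.01, and list medians below stand beside that. Where a count of list members moved by over 1.5 times without 1 library, its value without that library follows it. List counts of 1 or 2 members moved that far for most lists and are read as single genes. Fold changes are fasted over fed and carry the SE of the difference (n = 3 libraries a group).

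In a fasted mouse the liver burns fatty acids delivered from adipose tissue, turns part of them into ketone bodies and makes glucose. The nuclear receptor PPARα drives much of the fat-burning programme, and glucagon, glucocorticoids and FOXO proteins drive glucose production. Feeding raises insulin, which acts through SREBP proteins to promote fat synthesis. ChREBP also promotes fat synthesis, and SREBP proteins promote sterol synthesis. Nuclear RNA holds much unspliced transcript and so lies closer to transcription than whole-cell RNA does.

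Fasted libraries had 43814180, 42417175 and 41178186 counts, against 34479356, 13828945 and 49027343 in fed libraries. The shallowest, fed B, stood apart from fed A and C on the second principal component of log2 CPM (36.1, against -21.8 and -30.6). The first component, with 64.0% of the variance, separated fasted from fed. Fed B lay apart from fed A and C there too (65.9, against 29.6 and 33.5). Of 11359 genes with a mean of at least 1 CPM, 57 were at least 3-fold lower and 34 at least 3-fold higher in fed B than in both other fed libraries. The number of calls was lowest, at 1168, without fasted A, and at least 1810 without any other single library. In all, 1077 of the 2918 calls held without each of the 6 libraries in turn. Without fed B and fasted A together, a setting chosen after seeing the data, 700 genes were called. Sun1, which encodes a nuclear envelope protein often used as the tag in such lines, had 231, 164 and 184 CPM in fasted and 168, 143 and 112 CPM in fed libraries, which overlap (log2 fold change 0.45 ± 0.22, adjusted p = 0.118).

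The 21 hepatocyte markers summed to 24443 to 29275 CPM in fasted and 22713 to 24457 CPM in fed libraries, against 1024 to 2469 CPM in the supernatant nuclei left after IP of fresh liver. The 20 endothelial markers summed to 211, 175 and 156 CPM in fasted and 246, 351 and 254 CPM in fed nuclei. In supernatant they reached 4891 to 7691 CPM. Kupffer cell and macrophage markers summed to 51.7, 45.3 and 43.0 CPM in fasted and 41.5, 126 and 46.2 CPM in fed libraries, so that fed B held the most. Stellate cell and fibroblast markers summed to 75.0, 67.8 and 64.1 CPM in fasted and 88.5, 125 and 132 CPM in fed libraries. Lymphocyte markers summed to 20.1 to 29.7 CPM in fasted and 18.7 to 41.9 CPM in fed libraries, with 1 of 20 genes at 0 in each fasted library and 0, 6 and 0 at 0 in fed libraries. Neutrophil and erythroid markers summed to 1.82 to 1.99 CPM in fasted and 3.45 to 5.50 CPM in fed libraries. The part of other cell types in the results below was not tested. Fewer cells of a type and less RNA per cell cannot be told apart in such samples.

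**Figure D1:**
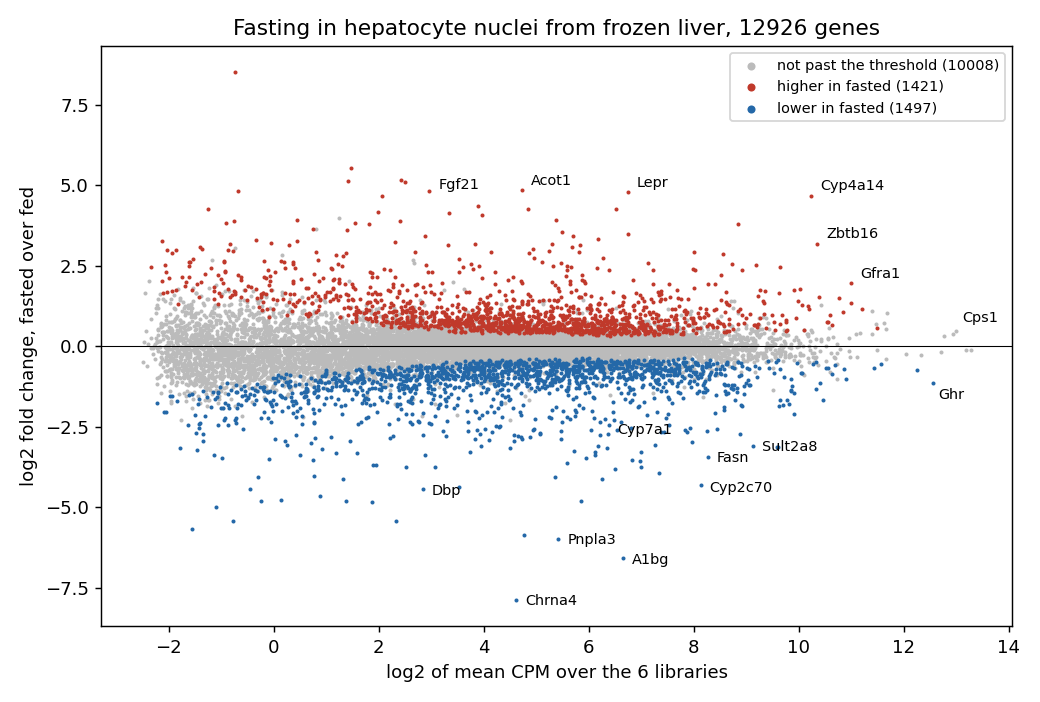
Log2 fold change, fasted over fed (y axis), against the log2 of the mean CPM over the 6 libraries (x axis) for 12926 tested genes, with 1421 higher in red, 1497 lower in blue and the rest in grey. Labelled genes are among those described in the text, and Chrna4, A1bg and Pnpla3 lie lowest among them.

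Genes of fatty acid oxidation rose together in fasted nuclei. The list of mitochondrial beta-oxidation had 16 of 23 members higher and 1 lower, with a median log2 fold change of 1.14. Cpt1a, which encodes the carnitine palmitoyltransferase that lets long-chain fatty acids into mitochondria, had 1511, 1031 and 1035 CPM in fasted and 543, 291 and 305 CPM in fed libraries. Every fasted library was above every fed one, and fed A was the highest of the fed (log2 fold change 1.65 ± 0.34, adjusted p = 0.00663). Crat, whose product moves acetyl groups onto carnitine, had 125, 149.7 and 129 CPM in fasted and 28.3, 17 and 15.3 CPM in fed nuclei. It rose most in the list, with no overlap (log2 fold change 2.73 ± 0.28, adjusted p = 0.000703), and it shares sequence on the other strand with Dolpp1. Decr1 (2,4-dienoyl-CoA reductase) rose by 1.74 ± 0.24, Etfdh (the electron transfer flavoprotein dehydrogenase) by 1.59 ± 0.20 and Slc25a20 (the carnitine-acylcarnitine carrier) by 1.54 ± 0.33 on the log2 scale. The trifunctional protein subunits Hadha and Hadhb rose by 1.15 ± 0.20 and 1.48 ± 0.16. Acyl-CoA dehydrogenases for medium, long and very long chains rose by 1.50 ± 0.24 (Acadm), 1.01 ± 0.06 (Acadl) and 1.30 ± 0.33 (Acadvl). Acad10, a less studied acyl-CoA dehydrogenase, was the member that fell (log2 fold change -0.58 ± 0.18, adjusted p = 0.0382), a call that did not hold without library fasted A or C or fed A or B (log2 fold change -0.57 to -0.46, adjusted p from 0.0769 to 0.136). Ppara itself had 1488, 1361 and 1090.1 CPM in fasted and 1292, 718 and 1042 CPM in fed libraries and did not pass (log2 fold change 0.37 ± 0.28, adjusted p = 0.284).

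Genes of omega-oxidation and acyl-CoA thioesterases moved both ways, with Cyp4a14 and Acot1 among the largest rises. Cyp4a14 (chromosome 4, 115486200 to 115496141 on mm10), a P450 that hydroxylates the far end of fatty acids, had 2621, 2839.8 and 1531 CPM in fasted against 112, 67.1 and 96.2 CPM in fed libraries. The lowest fasted library lay far above the highest fed one (log2 fold change 4.67 ± 0.36, adjusted p = 0.000303). Cyp4a10 had 1040.0, 1128 and 416 CPM in fasted and 63.8, 55.7 and 68.5 CPM in fed libraries, again with fasted C the lowest of the fasted (log2 fold change 3.78 ± 0.47, adjusted p = 0.000981). Cyp4a31 rose by 3.16 ± 0.30 and Cyp4a32 by 1.46 ± 0.43, the call on Cyp4a32 being lost without library fasted A or fed B (log2 fold change 1.36 to 1.37, adjusted p from 0.053 to 0.0553). Cyp4f14, at -1.61 ± 0.30, and Cyp4v3, at -1.25 ± 0.22, fell. In all, 4 of 8 tested members of the Cyp4 list rose and 2 fell, and the remaining members, both of the 4f family, did not pass. Of 12 thioesterases 4 rose and 1 fell, with a median of 0.35, and the 1 that fell, Acot11, was at -1.58 ± 0.72 and was lost without library fasted A or B or fed A, B or C (log2 fold change -1.89 to -1.47, adjusted p from 0.0626 to 0.106). Acot11 overlaps Fam151a on the other strand. Acot1 (chromosome 12, 84009502 to 84017669), a cytosolic acyl-CoA thioesterase, had 42.1, 60.8 and 51 CPM in fasted and 1.73, 2.14 and 1.64 CPM in fed libraries. Replicates lay close together in both groups (log2 fold change 4.84 ± 0.19, adjusted p = 9.58e-05). Its mitochondrial relative Acot2 had 4.09, 5.71 and 4.74 CPM in fasted and 0.294, 0.443 and 0.461 CPM in fed libraries (log2 fold change 3.60 ± 0.23, adjusted p = 0.000555). Neither gene's groups overlapped. The neighbouring Acot3 and Acot4 did not pass (log2 fold changes 0.03 ± 0.56 and 0.21 ± 0.26). Reads of near-identical Acot and Cyp4a copies may have been split between them.

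Peroxisomal genes were mixed, with 7 of 23 higher, 1 lower and a median of 0.47. That is 34.8% called, against 22.6% of all tested genes. Ehhadh, the peroxisomal bifunctional enzyme, had 413, 669 and 193 CPM in fasted and 68.5, 119 and 54.4 CPM in fed libraries. Fasted replicates spread over more than 3-fold, yet none overlapped the fed ones (log2 fold change 2.40 ± 0.62, adjusted p = 0.0102). Ech1 (dienoyl-CoA isomerase) rose by 2.01 ± 0.34, Pex11a (peroxisome division) by 1.99 ± 0.28 and Scp2 (sterol carrier protein and thiolase) by 1.76 ± 0.28. Pecr, a peroxisomal enoyl-CoA reductase, fell (log2 fold change -1.12 ± 0.19, adjusted p = 0.0046).

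Ketone body genes held 4 members of 11 that rose and 2 that fell. Acat1, the mitochondrial acetoacetyl-CoA thiolase, had 348, 407 and 289.7 CPM in fasted and 122, 104 and 152 CPM in fed libraries (log2 fold change 1.47 ± 0.22, adjusted p = 0.00263). Slc16a1, a ketone body transporter, rose by 0.87 ± 0.28, and that call was lost without library fasted A or B or fed A or C (log2 fold change 0.62 to 0.98, adjusted p from 0.0579 to 0.0829), and 2 members were called higher without fasted B. Aacs, which uses ketone bodies for lipid synthesis in the cytosol, had 21.2, 23.9 and 13.7 CPM in fasted against 208, 168 and 323 CPM in fed libraries (log2 fold change -3.57 ± 0.37, adjusted p = 0.000651). Fed C was the highest, and the groups lay far apart. Bdh1, the enzyme that makes 3-hydroxybutyrate, did not pass (log2 fold change 0.02 ± 0.21, adjusted p = 0.95). Pdk4, the kinase that shuts pyruvate dehydrogenase, had 87.9, 97 and 56.1 CPM in fasted and 10.9, 24.7 and 11.9 CPM in fed libraries. The groups did not overlap (log2 fold change 2.37 ± 0.45, adjusted p = 0.00384). It was the 1 of 13 members called higher in the pyruvate dehydrogenase list, where 2 were called without fasted C or fed B, while its relative Pdk1 fell, at -1.50 ± 0.42 on the log2 scale, and was lost without library fasted A (log2 fold change -1.43, adjusted p = 0.0687). In that list 23.1% were called in either direction, near the 22.6% of all tested genes.

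Several coat proteins of the lipid droplet rose, and 1, Plin3, fell. Of 18 tested droplet and lipolysis genes 9 rose and 5 fell, and the median was 0.80. Cidec, which fuses droplets, had 15.9, 9.94 and 6.98 CPM in fasted and 0.382, 0.369 and 0.241 CPM in fed libraries (log2 fold change 5.11 ± 0.39, adjusted p = 0.000555). Fasted A was the highest and every fed library was under 0.4 CPM. Plin4 had 235, 174 and 112 CPM in fasted and 11.5, 4.57 and 10.4 CPM in fed nuclei (log2 fold change 4.26 ± 0.52, adjusted p = 0.000854), with a partner gene, Hdgfrp2, on the other strand. Plin5, which ties droplets to mitochondria, had 74.3, 61.2 and 66.5 CPM in fasted and 10.2, 7.16 and 8.44 CPM in fed nuclei. Both groups were tight and well apart (log2 fold change 2.96 ± 0.17, adjusted p = 0.000189). Plin3 was at -0.69 ± 0.23 and was lost without library fasted A or B or fed A, B or C (log2 fold change -0.76 to -0.51, adjusted p from 0.0657 to 0.119). Plin2, a general droplet coat, rose by 1.63 ± 0.31, Fitm2 (droplet budding) by 1.64 ± 0.37 and Hilpda (a lipase inhibitor) by 2.37 ± 0.40. Pnpla2, the lipase that opens triglyceride breakdown, rose by 1.02 ± 0.27 and was lost without library fasted A (log2 fold change 0.96, adjusted p = 0.059). G0s2, its inhibitor, was called although fasted C lay below fed A (77.3, 146 and 28 CPM in fasted and 31.2, 17 and 25.7 CPM in fed; log2 fold change 1.76 ± 0.74, adjusted p = 0.0433). That call was lost without library fasted A or B or fed A, B or C (log2 fold change 1.08 to 1.96, adjusted p from 0.0726 to 0.127). Pnpla3 (chromosome 15, 84167816 to 84189521), a relative that sits on droplets and is known as a target of SREBP-1c, had 1.34, 1.33 and 1.29 CPM in fasted and 92.9, 139 and 21 CPM in fed nuclei. Fasted libraries were almost equal, while fed C was 4-fold or more below the other fed libraries (log2 fold change -5.98 ± 0.83, adjusted p = 0.00154). Hepatic lipase, Lipc, fell, at -1.34 ± 0.18 on the log2 scale, with adjusted p = 0.0032. The number of members that fell was 3 without fasted A or fasted B.

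In triglyceride synthesis 6 of 18 tested genes rose and 1 fell. Lpin1, a phosphatidate phosphatase that also acts as a coactivator, had 1749, 610.4 and 636 CPM in fasted and 252, 186 and 87.7 CPM in fed libraries. Fasted A stood highest (log2 fold change 2.51 ± 0.67, adjusted p = 0.0129). Lpin2 rose by 1.74 ± 0.39 and Agpat9 (glycerol-3-phosphate acyltransferase 3) by 1.97 ± 0.40. Dgat2, of the last step, had 223, 172 and 267 CPM in fasted and 353, 331 and 367 CPM in fed libraries and was called lower (log2 fold change -0.67 ± 0.19, adjusted p = 0.0286), a call lost without library fasted A or B or fed A, B or C (log2 fold change -0.71 to -0.52, adjusted p from 0.051 to 0.0949). Of 20 genes of fatty acid uptake and activation, 4 rose and 7 fell, and 2 rose without fasted A, fasted B or fed A. The transporter Slc27a2 had 1588, 1899.8 and 1365 CPM in fasted and 848, 631 and 684 CPM in fed nuclei (log2 fold change 1.17 ± 0.19, adjusted p = 0.00541). Vldlr, a lipoprotein receptor, fell, at -1.72 ± 0.29 on the log2 scale, and Cd36, a fatty acid translocase, did not pass (log2 fold change 1.02 ± 0.89, adjusted p = 0.232).

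**Figure D2:**
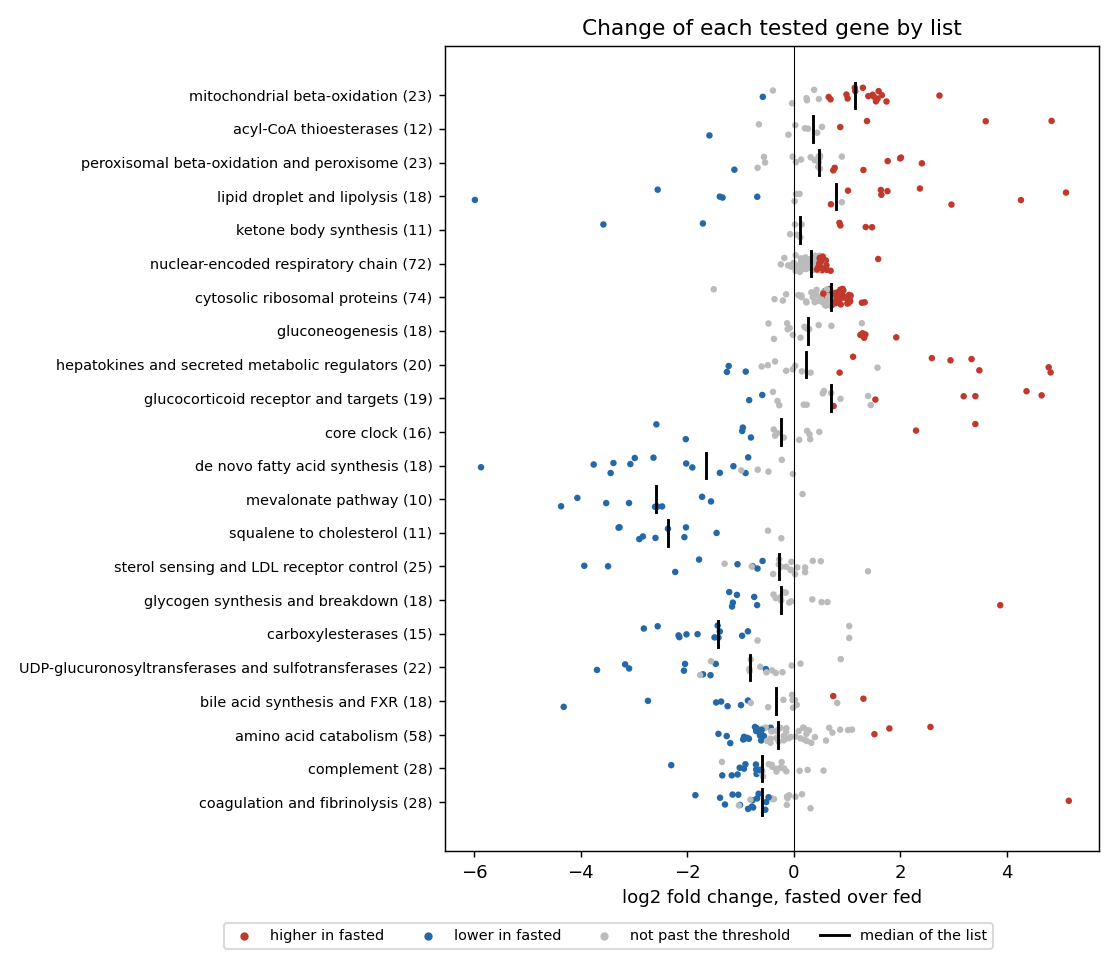
Log2 fold change, fasted over fed (x axis), of every tested member of 22 gene lists (rows, number of tested members in brackets), red where higher, blue where lower, grey where not past the threshold, with the median of each list as a black bar. Medians run from 1.14 for mitochondrial beta-oxidation to -2.58 for the mevalonate pathway.

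De novo fatty acid synthesis fell, with 13 of 18 tested genes lower, 0 higher and a median of -1.65. Fasn, the fatty acid synthase, had 50.4, 76.4 and 29 CPM in fasted and 848, 532 and 309 CPM in fed libraries. The highest fasted library was more than 4-fold below the lowest fed one (log2 fold change -3.44 ± 0.58, adjusted p = 0.00297). Acly, which makes cytosolic acetyl-CoA from citrate, had 71.2, 108 and 74.7 CPM in fasted and 786, 534 and 259 CPM in fed libraries (log2 fold change -2.63 ± 0.51, adjusted p = 0.00385). Fed C was again the lowest of the fed, and the groups did not overlap. Scd1, the stearoyl-CoA desaturase, fell, at -3.76 ± 0.69, Acaca (acetyl-CoA carboxylase) at -1.13 ± 0.26 and Acss2 (acetyl-CoA synthetase) at -2.99 ± 0.51. Thrsp, a small lipogenic regulator, had 1.1, 1.08 and 0.524 CPM in fasted and 75.9, 69 and 15 CPM in fed libraries, with fed C the lowest of the fed (log2 fold change -5.87 ± 0.83, adjusted p = 0.00154). Its partner Mid1ip1 fell, at -3.39 ± 0.41. The regulators fell as well: Srebf1 had 36.1, 35.6 and 26.6 CPM in fasted and 259, 307 and 258 CPM in fed nuclei, with every library close to its group (log2 fold change -3.07 ± 0.17, adjusted p = 0.000189). Srebf1 overlaps Rai1 on the other strand. Mlxipl, which encodes ChREBP, had 448, 499.5 and 581 CPM in fasted and 1649.7, 939 and 1413 CPM in fed libraries (log2 fold change -1.39 ± 0.27, adjusted p = 0.00568). Fed B was the lowest of the fed and above every fasted library. Elovl6, which lengthens palmitate, fell, at -1.91 ± 0.61, and was lost without library fasted A or C or fed B (log2 fold change -2.06 to -1.54, adjusted p from 0.0534 to 0.0541). Acacb, the carboxylase isoform that controls entry into mitochondria, and Me1 (malic enzyme) did not pass (-0.23 ± 0.26 and -0.68 ± 0.40).

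Genes of sterol synthesis fell together. Of 10 mevalonate genes 9 fell, and of 11 genes from squalene to cholesterol 9 fell, and both counts were 9 without each library in turn. Mvd (chromosome 8, 122433596 to 122443422), which decarboxylates mevalonate diphosphate, had 0.658, 1.82 and 0.691 CPM in fasted and 23.7, 23 and 19.1 CPM in fed libraries (log2 fold change -4.37 ± 0.46, adjusted p = 0.000658). Fdps, which makes farnesyl diphosphate, had 3.27, 7.53 and 3.07 CPM in fasted and 95.3, 64.3 and 72.2 CPM in fed nuclei (log2 fold change -4.06 ± 0.45, adjusted p = 0.00085). In both genes every fed library was several-fold above every fasted one. Hmgcs1 had 20.3, 58.4 and 18.2 CPM in fasted and 172, 233 and 166 CPM in fed libraries (log2 fold change -2.56 ± 0.56, adjusted p = 0.00674). Idi1 (isopentenyl diphosphate isomerase) had 2.47, 6.19 and 0.977 CPM in fasted and 27.5, 31.9 and 23.2 CPM in fed libraries (log2 fold change -3.09 ± 0.76, adjusted p = 0.0075). Sqle, the squalene epoxidase, had 5.21, 11.4 and 2.62 CPM in fasted and 55, 47.8 and 34.9 CPM in fed libraries (log2 fold change -2.83 ± 0.64, adjusted p = 0.00631). Cyp51 (lanosterol demethylase) had 12.6, 23.8 and 7.36 CPM in fasted and 84.1, 77.9 and 63.2 CPM in fed libraries (log2 fold change -2.36 ± 0.50, adjusted p = 0.00542). Fed C was the lowest of the fed in all 3 and no groups overlapped. In each of these genes fasted B was the highest of the fasted libraries. Msmo1, the sterol methyl oxidase, fell, at -3.29 ± 0.70, and Nsdhl, the next dehydrogenase, at -3.27 ± 0.47. Ggps1, which leads from farnesyl diphosphate towards protein prenylation, did not pass (0.16 ± 0.08), nor did Ebp (-0.49 ± 0.18) and Hsd17b7 (-0.24 ± 0.42).

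Upstream control of sterols gave 0 of 25 genes higher and 8 lower, or 32% called against 22.6% of all tested genes. Without fasted A, 5 were lower. Insig1, which holds SREBPs in the endoplasmic reticulum and is itself an SREBP target, had 15, 32.5 and 12 CPM in fasted and 237, 419 and 254 CPM in fed nuclei (log2 fold change -3.93 ± 0.51, adjusted p = 0.00131). Fasted B and fed B were the highest of their groups, which did not overlap. Insig2, its relative, had 906, 508 and 412 CPM in fasted and 298, 294 and 105 CPM in fed nuclei. The groups did not overlap, and the gene narrowly failed the test (log2 fold change 1.39 ± 0.60, adjusted p = 0.0501). Srebf2, the sterol regulator, had 76, 108 and 56.5 CPM in fasted and 140.1, 147 and 125 CPM in fed libraries. It passed narrowly (log2 fold change -0.77 ± 0.28, adjusted p = 0.0396) and was lost without library fasted A or C or fed A, B or C (log2 fold change -0.84 to -0.58, adjusted p from 0.0596 to 0.128).

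Promoters of sterol genes are known for paired SREBP and NF-Y sites, NF-Y binding the letters CCAAT. In RefSeq windows from 250 bases before to 50 after the start (GRCm38.p6), matched to 9617 of the tested genes, CCAAT on either strand stood in 38.6% of all windows, 37.7% of 1054 windows of genes that rose and 46.6% of 1098 of genes that fell. It stood in 6 of 7 windows of the mevalonate list and 8 of 9 of the list from squalene to cholesterol. A high share was not particular to sterol genes. CCAAT stood in 17 of 21 windows of endoplasmic reticulum chaperones, a list with 4 of 26 genes lower and 0 higher. Other lists had few, as the acute phase proteins with 2 of 20. The sterol element TCACNCCAC stood in 1.08% of all windows and in 1 of the 7 mevalonate windows, that of Hmgcs1. It stood in 0 of the 9 windows from squalene to cholesterol and 0 of 17 of the sterol sensing list. A pair of windows, neither holding the sterol element, is printed to show where CCAAT lies close to the start, with CCAAT or its reverse complement in capitals.
Idi1, chr13:8885356-8885655, plus strand: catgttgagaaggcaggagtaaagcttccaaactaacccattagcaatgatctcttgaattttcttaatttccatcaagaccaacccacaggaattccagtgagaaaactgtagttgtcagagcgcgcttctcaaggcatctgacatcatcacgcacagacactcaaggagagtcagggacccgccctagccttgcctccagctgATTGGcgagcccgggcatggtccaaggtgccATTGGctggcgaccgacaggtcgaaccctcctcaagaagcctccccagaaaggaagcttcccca
Cyp51, chr5:4104648-4104947, minus strand: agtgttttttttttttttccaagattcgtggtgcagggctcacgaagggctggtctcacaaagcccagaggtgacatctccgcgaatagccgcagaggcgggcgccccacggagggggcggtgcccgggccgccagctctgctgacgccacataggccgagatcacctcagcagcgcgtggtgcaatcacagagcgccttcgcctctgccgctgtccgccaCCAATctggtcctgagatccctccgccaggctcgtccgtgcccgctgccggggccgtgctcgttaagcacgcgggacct
The marks lie at -45 to -41 and -14 to -10 in Idi1 and at -29 to -25 in Cyp51, counted with 0 at the start. They describe the letters and no binding was measured.

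Genes of glucose production were called at a share near that over all genes. Of 18 tested gluconeogenic genes 5 rose and 0 fell, which is 27.8% called against 22.6% of all tested genes, with a median of 0.26. Ppargc1a, a coactivator of gluconeogenic and oxidative genes, had 637, 369 and 460.4 CPM in fasted and 139.9, 146 and 102 CPM in fed libraries (log2 fold change 1.92 ± 0.28, adjusted p = 0.00204). Every fasted library was above every fed one. Foxo1, the insulin-restrained transcription factor, had 1352, 761 and 671 CPM in fasted and 368, 375 and 355 CPM in fed libraries. Fasted A was the highest and fed libraries were nearly equal (log2 fold change 1.34 ± 0.31, adjusted p = 0.0104). Both genes of glycerol use rose, Gk (glycerol kinase) by 1.29 ± 0.13 and Gpd1 (glycerol-3-phosphate dehydrogenase) by 1.32 ± 0.30. Creb3l3, a liver factor for Fgf21 and lipid genes, rose by 1.25 ± 0.29. Fbp2, the isoform of fructose bisphosphatase typical of muscle, stands in no list and was chosen after its values were seen. It had 13, 4.63 and 1.86 CPM in fasted and 0.734, 0.443 and 0.261 CPM in fed libraries (log2 fold change 3.78 ± 0.89, adjusted p = 0.0129). Fasted libraries differed several-fold among themselves, with A highest, and none overlapped the fed. Pck1, the classic gluconeogenic carboxykinase, had 2051, 1291 and 2497 CPM in fasted and 1566, 558 and 286 CPM in fed libraries. Fed A lay above fasted B, the groups overlapped, and the gene did not pass (log2 fold change 1.28 ± 0.77, adjusted p = 0.135). G6pc, which releases free glucose, had 752, 689 and 1089 CPM in fasted and 838, 509.6 and 205 CPM in fed libraries and overlapped too (log2 fold change 0.70 ± 0.63, adjusted p = 0.278). In both genes fed C was the lowest and fed A the highest of the fed.

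Glycolytic genes were split, with 6 of 31 higher and 5 lower. Ldha, the lactate dehydrogenase subunit, had 96.5, 129 and 105 CPM in fasted and 46.4, 36.1 and 35.7 CPM in fed libraries (log2 fold change 1.48 ± 0.17, adjusted p = 0.00135). Fasted B was the highest, with no overlap between groups. Pfkfb2, which sets fructose 2,6-bisphosphate, had 298, 198 and 238 CPM in fasted and 78.5, 70.1 and 80.0 CPM in fed libraries (log2 fold change 1.68 ± 0.18, adjusted p = 0.00102), and it overlaps Yod1 on the other strand. Pklr, liver pyruvate kinase, fell, at -1.58 ± 0.52, and was lost without library fasted A or C or fed A (log2 fold change -1.50 to -1.18, adjusted p from 0.0631 to 0.0907). The higher count was 3 without fasted A or fed C, and the lower count was 1 without fasted A, fasted C or fed A and 3 without fasted B. The cAMP element TGACGTCA stood in 3.31% of all promoter windows, 5.60% of those of genes that rose and 1.91% of those that fell. The element stood in 1 of 25 windows of the glycolytic list, that of Ldha, and in 0 of 14 of the gluconeogenic list. Ldha is shown because it holds the element at -12 to -5, in capitals.
Ldha, chr7:46845554-46845853, plus strand: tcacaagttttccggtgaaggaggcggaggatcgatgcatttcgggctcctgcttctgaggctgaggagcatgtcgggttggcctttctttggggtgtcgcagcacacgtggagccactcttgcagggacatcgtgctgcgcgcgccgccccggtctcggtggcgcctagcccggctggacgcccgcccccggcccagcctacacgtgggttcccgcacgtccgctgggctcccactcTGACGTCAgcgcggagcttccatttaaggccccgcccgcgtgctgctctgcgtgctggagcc

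Glycogen genes gave 6 of 18 lower and 1 higher. Pygl, the liver phosphorylase, had 100.2, 177 and 81.4 CPM in fasted and 319.9, 260.2 and 221 CPM in fed libraries (log2 fold change -1.16 ± 0.37, adjusted p = 0.0248). Fasted B was the highest of the fasted and below every fed library. The targeting subunits Ppp1r3b and Ppp1r3c, which bring phosphatase to glycogen, fell, at -1.07 ± 0.32, and -1.21 ± 0.34. Ppp1r3g, the fasting-linked subunit of the family, had 0.775, 0.345 and 2.22 CPM in fasted and 0.176, 0 and 0.0201 CPM in fed libraries, with 0 counts in fed B (log2 fold change 3.87 ± 0.97, adjusted p = 0.0281). None of these calls held without each library in turn. Pygl was lost without library fasted A or C or fed A or B (log2 fold change -1.18 to -0.95, adjusted p from 0.0574 to 0.0952), Ppp1r3b without library fasted A or B or fed B (log2 fold change -1.09 to -0.95, adjusted p from 0.0509 to 0.0705), Ppp1r3c without library fasted A or fed B (log2 fold change -1.12 to -1.10, adjusted p from 0.0501 to 0.0709) and Ppp1r3g without library fasted A or C or fed B or C (log2 fold change 2.88 to 4.08, adjusted p from 0.0617 to 0.0899). The count of members that fell was 0 without fasted A or fed B, 2 without fasted C and 3 without fed A. Gys2, the liver synthase, did not pass (log2 fold change 0.52 ± 0.46, adjusted p = 0.3).

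**Figure D3:**
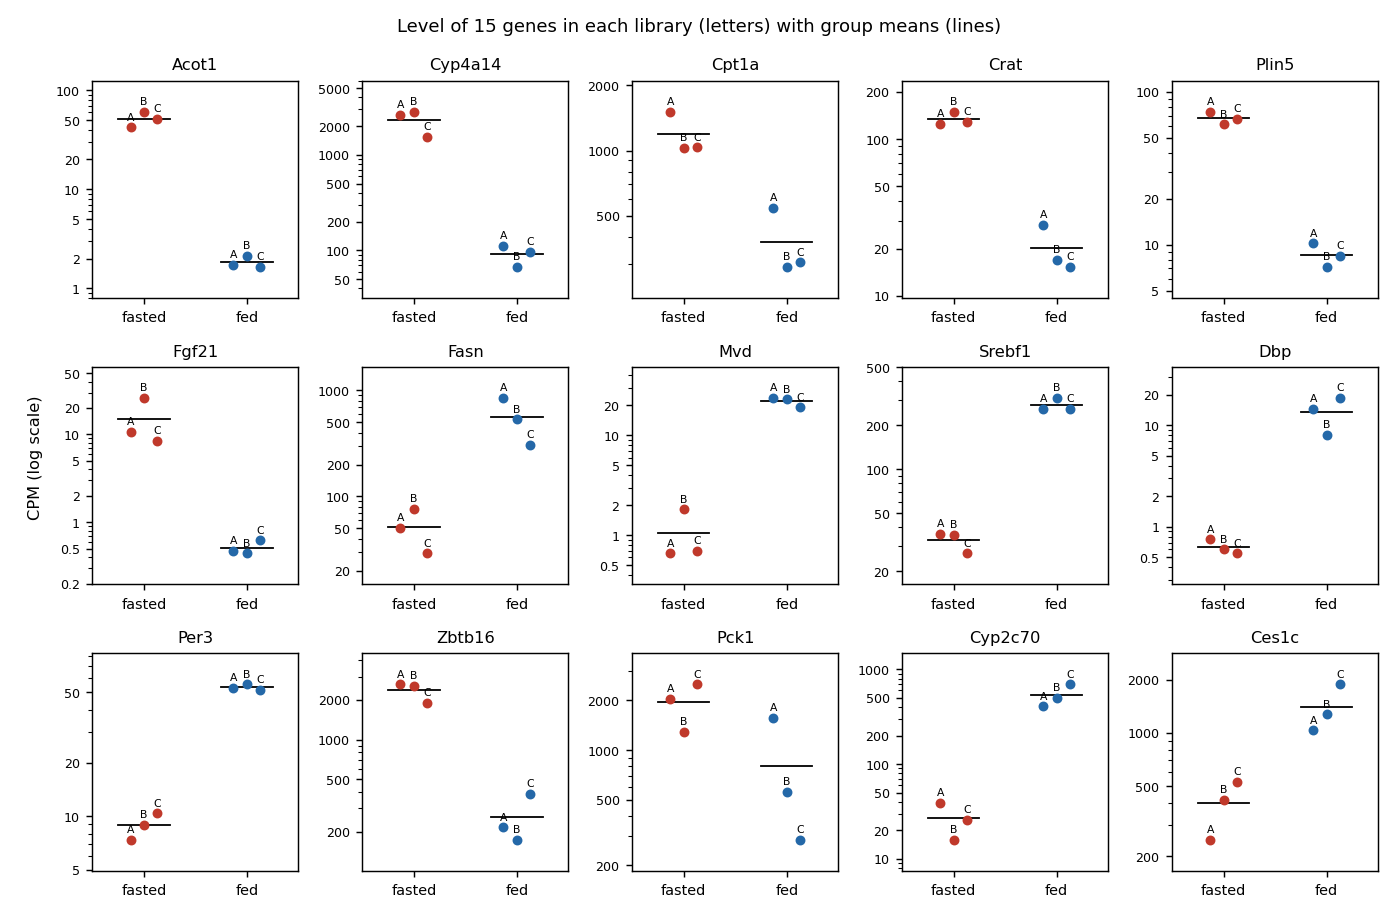
CPM (log y axis) of 15 genes in each fasted library (left, red) and fed library (right, blue), with library letters beside the points and lines at group means. Groups lie apart in every panel but that of Pck1, where fed A at 1566 CPM is above fasted B at 1291 CPM.

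Of 24 glucagon and cAMP genes 0 rose and 1 fell, and of 24 insulin pathway genes 2 rose and 2 fell, or 16.7%, where 22.6% of all tested genes were called. The insulin list had 1 higher without fasted A and 4 without fasted B, and its lower count was 1 without fasted B or C and 3 without fed C. In the glucagon list 2 were higher without fasted B and 1 without fed B, while 0 were lower without fasted B, fasted C or fed A and 2 without fed C. Of 18 IGF1 and growth hormone genes 2 rose and 4 fell, or 33.3%. The higher count of that list was 1 with any library but fed A left out. Irs2, an insulin receptor substrate known to rise in fasting, had 264, 164 and 144 CPM in fasted and 77.2, 86 and 40.4 CPM in fed libraries (log2 fold change 1.50 ± 0.43, adjusted p = 0.0153), a call lost without library fasted A (log2 fold change 1.19, adjusted p = 0.0509). Insr, the receptor, had 535, 560.1 and 553 CPM in fasted and 589.8, 574 and 554 CPM in fed libraries, close together in both groups (log2 fold change -0.06 ± 0.03, adjusted p = 0.743). Ghr, the growth hormone receptor, had 4087, 3969.8 and 3234 CPM in fasted and 7582, 7876 and 9599.9 CPM in fed libraries. No fasted library reached the lowest fed one (log2 fold change -1.15 ± 0.15, adjusted p = 0.00592). Jak2, the kinase bound to it, fell, at -0.81 ± 0.06, and Igfals, which stabilises circulating IGF1, at -1.23 ± 0.26. Igfbp5, an IGF-binding protein, had 0.893, 0.898 and 0.548 CPM in fasted and 7.72, 16.4 and 8.08 CPM in fed libraries (log2 fold change -3.75 ± 0.41, adjusted p = 0.00102). All fasted libraries were under 1 CPM, and fed B was the highest. Igfbp1, a secreted IGF inhibitor that insulin represses, had 328, 114 and 281 CPM in fasted and 51.5, 55.6 and 13.9 CPM in fed libraries (log2 fold change 2.59 ± 0.80, adjusted p = 0.0156). It was lost without library fasted A (log2 fold change 2.31, adjusted p = 0.0541).

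In the growth hormone axis 1 fed library stood apart. Igf1, the hormone made in liver, had 1746, 993 and 546 CPM in fasted and 401, 772 and 2968 CPM in fed libraries. Fed C was above every other library and fed A below all of them, so the groups overlapped and the gene did not pass (log2 fold change -0.33 ± 0.98, adjusted p = 0.754). Socs2, a feedback inhibitor of growth hormone signalling, had 15.6, 4.67 and 12.2 CPM in fasted and 4.05, 6.57 and 57.3 CPM in fed libraries (log2 fold change -1.09 ± 1.28, adjusted p = 0.412). Cish, another such inhibitor, had 12.3, 7.34 and 8.08 CPM in fasted and 8.1, 10.5 and 38.9 CPM in fed libraries (log2 fold change -1.07 ± 0.73, adjusted p = 0.193). In both, fed C was the highest library and the other fed libraries lay among or below the fasted ones. Egfr, the EGF receptor, had 5512, 3395 and 4354 CPM in fasted and 621, 802 and 5087 CPM in fed libraries, so fed C lay with the fasted libraries (log2 fold change 1.03 ± 0.98, adjusted p = 0.335). Cyp2c69, a P450, had 226, 108 and 145 CPM in fasted and 257, 515 and 3401 CPM in fed libraries. It was called (log2 fold change -3.12 ± 1.16, adjusted p = 0.0388) but not without library fasted A, B or C or fed C (log2 fold change -3.46 to -1.28, adjusted p from 0.0519 to 0.11). Without fed C the log2 fold change was 0.90 for Igf1 and 1.05 for Socs2, neither past the threshold. In fed B, Eif4a1 (a translation initiation factor) was high, with 1151, 865 and 1389 CPM in fasted and 986, 3822 and 1101 CPM in fed libraries. Cdk8 (a Mediator kinase) was low there, with 10199.5, 7721 and 8910.1 CPM in fasted and 8330.1, 2657 and 9514 CPM in fed libraries. Eif4a1 and Cdk8 were chosen after their values were seen. Fed C was at least 3-fold above both other fed libraries in 28 genes, 6 of them called, and at least 3-fold below in 32, 12 of them called.

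**Figure D4:**
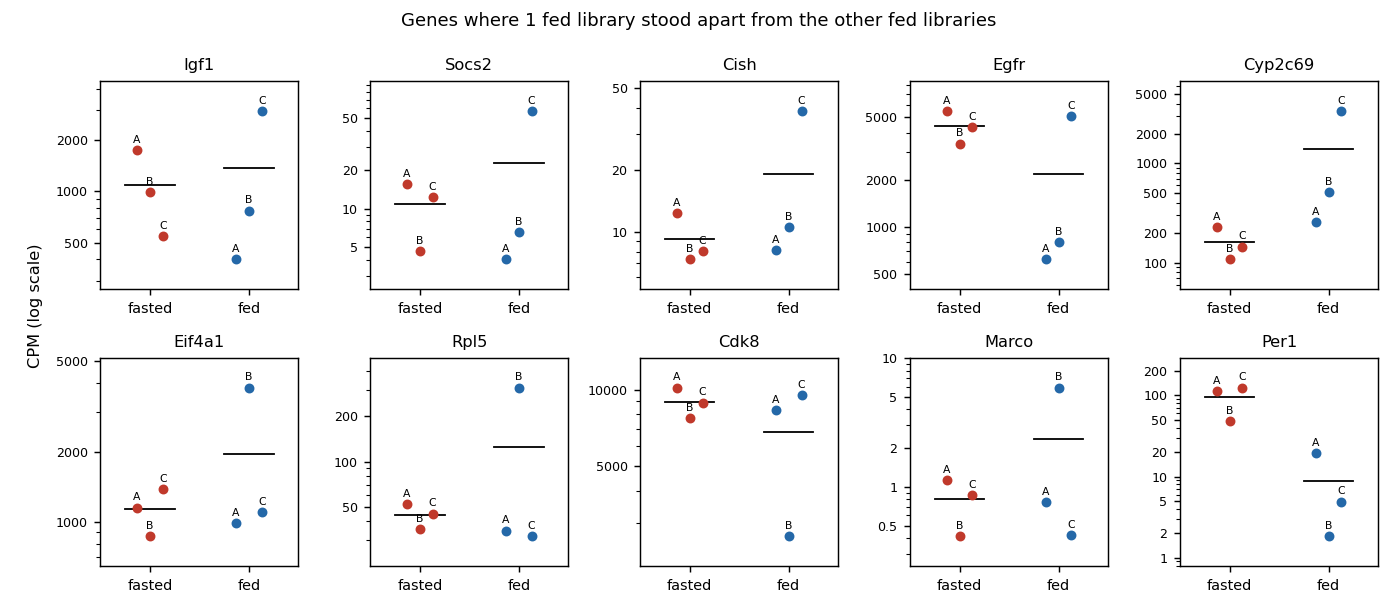
CPM (log y axis) in each fasted library (left, red) and fed library (right, blue) of 10 genes in which 1 fed library stood apart, with library letters and lines at group means. Fed C is high in the upper row, fed B is high for Eif4a1, Rpl5 and Marco and low for Cdk8, and fed A is high for Per1.

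Secreted regulators included some of the largest rises, with 8 of 20 higher and 3 lower. Fgf21 (chromosome 7, 45613890 to 45615490), the fasting hormone, had 10.7, 26 and 8.51 CPM in fasted and 0.47, 0.443 and 0.622 CPM in fed libraries. Fed libraries were all low and close together (log2 fold change 4.82 ± 0.51, adjusted p = 0.00116). Lepr (chromosome 4, 101717407 to 101815354), the leptin receptor, whose soluble form liver releases in fasting, had 142, 45.3 and 435 CPM in fasted and 4.7, 13.2 and 5.64 CPM in fed libraries. Fasted libraries differed almost 10-fold among themselves, with C highest, yet all exceeded the fed ones (log2 fold change 4.78 ± 1.05, adjusted p = 0.00741). Lepr was also present in supernatant nuclei, at 263 CPM in fasted and 40.5 CPM in fed, on a scale set over all 18 libraries. Angptl4, an inhibitor of lipoprotein lipase, had 183, 180.3 and 226 CPM in fasted and 31.6, 6.27 and 14.2 CPM in fed libraries (log2 fold change 3.48 ± 0.68, adjusted p = 0.00362). Tsku (tsukushi) had 178, 123 and 91.1 CPM in fasted and 15.5, 19.3 and 4.89 CPM in fed libraries (log2 fold change 3.33 ± 0.67, adjusted p = 0.00385). Fed B was the lowest of the fed for Angptl4 and the highest for Tsku, and neither gene overlapped. Apoa4, an apolipoprotein of triglyceride-rich particles, had 34.6, 30.9 and 27.5 CPM in fasted and 4.38, 4.35 and 3.49 CPM in fed libraries (log2 fold change 2.94 ± 0.14, adjusted p = 0.000189). Replicates lay close together in both groups. Nrg4 rose by 1.11 ± 0.30 and Rbp4, the retinol carrier, by 0.86 ± 0.11, while Lect2 fell, at -1.22 ± 0.25, and Hgfac, which activates HGF, at -1.26 ± 0.19.

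Of 32 activin, TGF-beta and BMP genes 2 rose and 8 fell, or 31.25% called against 22.6% of all tested genes. Without fasted A, 3 fell. Inhbc, an activin subunit made in liver, had 68.3, 75.2 and 73.6 CPM in fasted and 36.1, 22.1 and 36.7 CPM in fed libraries (log2 fold change 1.19 ± 0.24, adjusted p = 0.00563). Its neighbour Inhbe overlapped between groups and was called (log2 fold change 1.29 ± 0.55, adjusted p = 0.049), but not without library fasted A or B or fed A, B or C (log2 fold change 0.80 to 1.49, adjusted p from 0.065 to 0.14). Hamp2, a relative of hepcidin, had 0.869, 2.21 and 0.357 CPM in fasted and 14.7, 18.5 and 14 CPM in fed libraries (log2 fold change -3.77 ± 0.72, adjusted p = 0.00322). The groups lay apart, with fasted B the highest of the fasted. Hamp, hepcidin itself, which lowers iron release, had 122, 151 and 115 CPM in fasted and 218, 247 and 389 CPM in fed libraries (log2 fold change -1.13 ± 0.28, adjusted p = 0.0125). That call was lost without library fasted A (log2 fold change -1.09, adjusted p = 0.056). Smad6, a BMP feedback inhibitor, fell, at -0.80 ± 0.17.

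Glucocorticoid targets gave 6 of 19 higher and 2 lower, with a median of 0.70. Zbtb16, a transcription factor induced by glucocorticoids, had 2621, 2560.3 and 1895 CPM in fasted and 215, 173 and 389 CPM in fed nuclei (log2 fold change 3.19 ± 0.38, adjusted p = 0.00109). Gadd45b, a stress-response gene, had 8.01, 4.1 and 11.8 CPM in fasted and 0.352, 0.516 and 0.201 CPM in fed libraries (log2 fold change 4.65 ± 0.56, adjusted p = 0.00135). For Zbtb16 fed C was the highest of the fed and still several-fold below every fasted library. Cdkn1a, which encodes the cell cycle inhibitor p21, had 39.5, 15.1 and 29.7 CPM in fasted and 2.06, 1.62 and 0.602 CPM in fed libraries. Fasted B was the lowest of the fasted in both (log2 fold change 4.36 ± 0.66, adjusted p = 0.00176 for Cdkn1a). Klf9 rose by 0.75 ± 0.12. Fkbp5, a chaperone of the receptor, had 376, 219.8 and 241 CPM in fasted and 42.5, 83.4 and 164 CPM in fed libraries (log2 fold change 1.53 ± 0.61, adjusted p = 0.0416). It was lost without library fasted A, B or C or fed A or B (log2 fold change 1.17 to 1.67, adjusted p from 0.0596 to 0.133), and in supernatant nuclei it had 619 CPM in fasted and 74.5 CPM in fed. The receptor gene Nr3c1 had 243, 265 and 275 CPM in fasted and 413, 521 and 467 CPM in fed libraries and fell (log2 fold change -0.84 ± 0.11, adjusted p = 0.00594). The metallothioneins Mt1 (0.88 ± 0.93) and Mt2 (1.44 ± 1.11), known to be induced by glucocorticoids, did not pass, and fed C was the highest of the fed libraries in both.

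Some clock genes changed, in mice killed at the same time of day. Of 16 core clock genes 2 rose and 5 fell, with 0 called higher and 3 lower without fasted A, and of 10 output genes 1 rose and 4 fell. Per3, a period gene, had 7.38, 8.93 and 10.4 CPM in fasted and 53, 55.4 and 51.4 CPM in fed libraries, with little spread within groups (log2 fold change -2.58 ± 0.15, adjusted p = 0.000189). Nr1d1, which encodes the repressor REV-ERBα, had 22.7, 25 and 31.1 CPM in fasted and 103, 82.5 and 135 CPM in fed libraries (log2 fold change -2.03 ± 0.25, adjusted p = 0.00109). Fed B was the lowest of the fed and above every fasted library. Cry2, a repressor of the clock, fell, at -0.96 ± 0.19. Dbp, a transcription factor that binds D-boxes and is driven by the clock, had 0.752, 0.598 and 0.548 CPM in fasted and 14.4, 8.04 and 18.6 CPM in fed libraries (log2 fold change -4.44 ± 0.38, adjusted p = 0.00055), and Sphk2 overlaps it on the other strand. Its relative Tef fell, at -0.997 ± 0.20, and the third of the family, Hlf, did not pass (log2 fold change -0.04 ± 0.24, adjusted p = 0.908). Per1 went the other way, with 113, 48.5 and 124 CPM in fasted and 19.4, 1.84 and 4.91 CPM in fed libraries. Fed A was the highest of the fed (log2 fold change 3.41 ± 1.07, adjusted p = 0.0161), and the call was lost without library fasted A (log2 fold change 3.27, adjusted p = 0.052). Usp2, a deubiquitinase under clock control, rose by 1.89 ± 0.17. Arntl, the positive arm of the loop, had 277, 315 and 231 CPM in fasted and 246, 347 and 176 CPM in fed libraries and did not pass (log2 fold change 0.10 ± 0.31, adjusted p = 0.794). Per2 did not pass either (log2 fold change -0.38 ± 0.23, adjusted p = 0.194).

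Liver transcription factors split, with 4 of 19 lineage factors higher and 6 lower. Foxa3 had 59.7, 73.4 and 85.1 CPM in fasted and 31, 25.7 and 35.3 CPM in fed libraries (log2 fold change 1.24 ± 0.20, adjusted p = 0.0033), while Foxa2, a pioneer factor of the same family, had 11.1, 11.2 and 9.91 CPM in fasted and 17.3, 22.3 and 25.7 CPM in fed libraries (log2 fold change -1.02 ± 0.18, adjusted p = 0.00646). Cebpd, which overlaps Spidr on the other strand, rose by 2.41 ± 0.31. Cebpa fell, at -1.09 ± 0.28, and was lost without library fasted A (log2 fold change -1.02, adjusted p = 0.0663). The lower count was 3 without fasted C, fed B or fed C, 2 without fasted B and 1 without fasted A. Esr1, the oestrogen receptor of these female mice, had 300.3, 198 and 292 CPM in fasted and 728, 976 and 496 CPM in fed libraries (log2 fold change -1.48 ± 0.34, adjusted p = 0.00845). The groups did not overlap in any of Foxa3, Foxa2 and Esr1. Hnf4a, the master factor of hepatocytes, had 682, 537 and 757 CPM in fasted and 512, 401 and 439 CPM in fed libraries, not overlapping but short of the threshold (log2 fold change 0.55 ± 0.18, adjusted p = 0.0537).

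Of 18 genes of bile acid synthesis and its receptor FXR 7 fell and 2 rose. Cyp7a1, the rate-limiting enzyme, had 12.2, 37.9 and 14.6 CPM in fasted and 86.7, 236 and 111 CPM in fed libraries. B was the highest library of either group (log2 fold change -2.74 ± 0.67, adjusted p = 0.00994). Cyp2c70 (chromosome 19, 40153361 to 40187286), which makes the muricholic acids of mice, had 38.8, 15.9 and 25.7 CPM in fasted and 407, 503 and 694 CPM in fed nuclei (log2 fold change -4.32 ± 0.43, adjusted p = 0.000651). No fasted library was above 40 CPM and no fed one below 400 CPM. Akr1d1, the 5β-reductase of the pathway, fell, at -1.46 ± 0.25, Cyp7b1 at -0.99 ± 0.20 and Cyp27a1 at -0.86 ± 0.11. Cyp8b1, which sets the cholic acid share, did not pass (log2 fold change 0.81 ± 0.85, adjusted p = 0.361), and nor did Nr0b2 (the repressor SHP, -0.81 ± 0.91) and Nr1h4 (the bile acid receptor FXR, -0.02 ± 0.12). Abcb4, the canalicular phospholipid pump, rose with 1492, 1601 and 1311 CPM in fasted and 656, 608 and 398 CPM in fed libraries (log2 fold change 1.41 ± 0.24, adjusted p = 0.00421). Abcb11, the bile salt pump, fell (log2 fold change -0.71 ± 0.22, adjusted p = 0.0428), a call lost without library fasted A or B or fed A or B (log2 fold change -0.77 to -0.52, adjusted p from 0.0685 to 0.156).

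Many detoxification genes fell. P450 genes of the Cyp2 family outside Cyp2a, Cyp2b and Cyp2e gave 12 of 27 lower and 4 higher, and 9 of 22 UDP-glucuronosyltransferases and sulfotransferases fell while 0 rose. Sult2a8, a sulfotransferase, had 98.8, 165 and 87.6 CPM in fasted and 1102, 885 and 1007 CPM in fed libraries. Fed libraries were at least 5-fold above every fasted one (log2 fold change -3.09 ± 0.29, adjusted p = 0.000651). Cyp1a2, a pericentral P450, had 5.36, 5.25 and 7.98 CPM in fasted and 36.6, 47.4 and 41.5 CPM in fed libraries (log2 fold change -2.75 ± 0.22, adjusted p = 0.000444). Cyp2a5, a coumarin hydroxylase, had 16.9, 18.6 and 19.6 CPM in fasted and 139, 93.8 and 105 CPM in fed libraries (log2 fold change -2.62 ± 0.18, adjusted p = 0.000273). The fasted libraries were close together in both P450 genes. Cyp2c29 fell, at -1.38 ± 0.19. Against these, Cyp3a11, the main drug-metabolising P450 of the 3a family, had 564, 518 and 789 CPM in fasted and 272, 314 and 298 CPM in fed libraries (log2 fold change 1.08 ± 0.19, adjusted p = 0.00641). Por, the reductase that serves all microsomal P450s, had 1453, 675 and 897 CPM in fasted and 275, 297 and 344 CPM in fed libraries (log2 fold change 1.72 ± 0.34, adjusted p = 0.00528). Alas1, which starts the synthesis of their heme, had 790.4, 547 and 465 CPM in fasted and 128, 81.7 and 179.9 CPM in fed libraries (log2 fold change 2.21 ± 0.40, adjusted p = 0.00353). Groups did not overlap for Cyp3a11, Por or Alas1, and fasted A was the highest for Por and Alas1. Near-identical members of the Cyp2c and Sult2a families may share reads. Of 32 glutathione genes 13 fell and 4 rose, the lower count being 8 without fasted A or fasted B and 6 without fasted C. Txnip, an arrestin that binds thioredoxin and restrains glucose uptake, was among those that rose, with 30.3, 59.6 and 64.5 CPM in fasted and 8.81, 6.27 and 5.64 CPM in fed nuclei (log2 fold change 2.89 ± 0.40, adjusted p = 0.00135).

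Carboxylesterases, which cleave esters in drugs and lipids, fell in 12 of 15 tested members and rose in 0, with a median of -1.43. Ces1c had 248, 419 and 529 CPM in fasted and 1035, 1273 and 1879.8 CPM in fed libraries (log2 fold change -1.81 ± 0.41, adjusted p = 0.00747). Ces1g, which affects liver fat, had 17.9, 27 and 13.6 CPM in fasted and 75.5, 115 and 72.3 CPM in fed libraries (log2 fold change -2.16 ± 0.36, adjusted p = 0.00274). The groups did not overlap in either gene, with replicates of a group differing by about 2-fold at most. Ces1d, Ces1e and Ces1f of the same cluster on chromosome 8 fell, at -1.39 ± 0.30, -0.97 ± 0.21 and -1.43 ± 0.30, and Ces3a at -1.49 ± 0.34. Aadac, an arylacetamide deacetylase, had 63.8, 80.9 and 58.4 CPM in fasted and 116, 139 and 115 CPM in fed libraries (log2 fold change -0.86 ± 0.17, adjusted p = 0.00796). Ces1b was lower in every fasted library but did not pass (log2 fold change -0.68 ± 0.35, adjusted p = 0.097), and Ces1a had under 1 CPM in every library (log2 fold change 1.04 ± 0.70, adjusted p = 0.142). Counts for these paralogs may be shared between them. The D-box, TTANGTAA, stood in 6 of 12 carboxylesterase windows (Aadac, Ces1a, Ces1b, Ces1c, Ces1e and Ces1g), against 1.43% of all windows, 1.71% of those that rose and 2.19% of those that fell. As these paralogs share sequence, their matches are not independent. A pair of windows is printed with the D-box in capitals.
Ces1c, chr8:93131234-93131533, minus strand: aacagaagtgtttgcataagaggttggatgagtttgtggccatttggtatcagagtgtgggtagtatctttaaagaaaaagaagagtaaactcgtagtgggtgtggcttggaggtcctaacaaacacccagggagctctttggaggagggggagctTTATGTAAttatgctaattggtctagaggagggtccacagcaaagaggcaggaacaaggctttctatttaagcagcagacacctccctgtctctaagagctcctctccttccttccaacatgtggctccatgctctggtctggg
Ces1g, chr8:93337160-93337459, minus strand: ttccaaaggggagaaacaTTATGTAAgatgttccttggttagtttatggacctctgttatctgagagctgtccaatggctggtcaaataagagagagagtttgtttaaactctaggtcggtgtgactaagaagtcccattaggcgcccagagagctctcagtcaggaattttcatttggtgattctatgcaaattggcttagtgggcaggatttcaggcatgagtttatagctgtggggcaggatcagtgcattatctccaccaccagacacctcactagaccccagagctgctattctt
The match lies at -94 to -87 in Ces1c and further out, at -232 to -225, in Ces1g. The last letters of the D-box can overlap a FOXO site (GTAAACA), which stood in 0 of the 12 windows and in 2.44% of all.

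Amino acid genes gave 17 of 58 lower and 3 higher, or 34.5% called against 22.6% of all tested genes. The lower count was 9 without fasted A or fed A, 10 without fasted C and 11 without fasted B. Hal, which opens histidine breakdown, had 359.7, 316 and 292 CPM in fasted and 814, 864 and 536 CPM in fed libraries (log2 fold change -1.19 ± 0.23, adjusted p = 0.00642). Aspg, an asparaginase, fell, at -1.26 ± 0.20, and Afmid, of the kynurenine pathway, at -1.42 ± 0.22, with Tk1 on the other strand. Sdsl, a relative of serine dehydratase, rose with 24.9, 14.5 and 30.6 CPM in fasted and 5.61, 2.51 and 3.45 CPM in fed libraries (log2 fold change 2.56 ± 0.46, adjusted p = 0.0032). Fasted B was the lowest of the fasted and above every fed library. Csad, which makes taurine precursors, rose by 1.79 ± 0.30. In the urea cycle Otc, the ornithine transcarbamylase, had 173, 206 and 253 CPM in fasted and 670.3, 915 and 433 CPM in fed libraries (log2 fold change -1.67 ± 0.35, adjusted p = 0.00595). Fed C was the lowest of the fed for both Hal and Otc, above all fasted libraries. Cps1, the first enzyme of the cycle, had 11584, 7365 and 9707 CPM in fasted and 7436, 8459 and 4803 CPM in fed libraries, which overlap (log2 fold change 0.47 ± 0.31, adjusted p = 0.237). Mthfd1l, a mitochondrial folate enzyme, had 50.4, 39.9 and 88.3 CPM in fasted and 6.22, 10.6 and 12.2 CPM in fed libraries (log2 fold change 2.62 ± 0.45, adjusted p = 0.00307).

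Genes for plasma proteins of complement and clotting were lower. Complement gave 12 of 28 lower and 0 higher (median -0.60), and coagulation 15 of 28 lower and 1 higher (median -0.60). Without fasted A these lower counts were 6 and 6. C9, of the membrane attack complex, had 24.9, 29.3 and 36 CPM in fasted and 113, 133 and 199 CPM in fed libraries (log2 fold change -2.30 ± 0.29, adjusted p = 0.0011). Mbl2, a mannose-binding lectin, fell, at -1.06 ± 0.17, Cfb, complement factor B, at -1.02 ± 0.14 and Masp1, a lectin pathway protease, at -0.94 ± 0.10. Kng1, kininogen, had 177, 208 and 244 CPM in fasted and 664, 734 and 866 CPM in fed libraries (log2 fold change -1.85 ± 0.17, adjusted p = 0.000936). In C9 and Kng1 fed C was the highest library and the groups did not overlap. F11 fell, at -1.15 ± 0.21, and F7 at -0.78 ± 0.16. C3 (log2 fold change -0.33 ± 0.60, adjusted p = 0.627) and prothrombin, F2 (log2 fold change -0.41 ± 0.26, adjusted p = 0.199), did not pass. Hp (haptoglobin) rose by 1.18 ± 0.16, and Orm3, an acute phase orosomucoid, had 0.799, 0.575 and 0.191 CPM in fasted and 8.54, 7.75 and 4.39 CPM in fed libraries (log2 fold change -3.70 ± 0.62, adjusted p = 0.00261). Serpina6, which carries corticosterone in blood, had 6.6, 20.3 and 9.99 CPM in fasted and 118, 165 and 98.5 CPM in fed libraries (log2 fold change -3.37 ± 0.52, adjusted p = 0.00208). Mup3, a major urinary protein gene with close copies, had 8.9, 9 and 3.65 CPM in fasted and 91.2, 87.3 and 89.1 CPM in fed libraries (log2 fold change -3.63 ± 0.43, adjusted p = 0.000728). The groups did not overlap for Orm3, Serpina6 or Mup3, and fed libraries were nearly equal for Mup3.

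Ribosomal protein genes rose by small amounts. Of 74 tested cytosolic ribosomal protein genes 45 rose and 0 fell, with a median log2 fold change of 0.69 and rises of 0.55 to 1.33. Rpl10a had 28.3, 19.2 and 33.3 CPM in fasted and 12, 9.3 and 10.7 CPM in fed libraries (log2 fold change 1.33 ± 0.26, adjusted p = 0.00568). Its libraries separated by group. Summed over the 74 genes, levels were 1168, 824 and 992 CPM in fasted and 640, 1030 and 612 CPM in fed libraries. Fed B carried 5 genes at 2-fold or more above both other fed libraries (Rpl27a, Rpl5, Rpl6, Rps16 and Rpsa). Summed without those 5, levels were 1008, 715 and 859 CPM in fasted and 544, 520.5 and 518 CPM in fed libraries. The count that rose was 5 without fasted A, 15 without fasted C, 20 without fed C and 22 without fed A. Of 72 nuclear-encoded respiratory chain genes 19 rose and 0 fell, with a median of 0.32. That is 26.4% called, near the 22.6% of all tested genes, of which 11.0% were higher. The number that rose was 0 without fasted A and 3 to 12 without each other library. Cycs, which encodes cytochrome c, had 12.9, 9.34 and 7.44 CPM in fasted and 4.96, 1.48 and 3.13 CPM in fed libraries (log2 fold change 1.58 ± 0.55, adjusted p = 0.0235), a call lost without library fasted A or B or fed C (log2 fold change 1.35 to 1.62, adjusted p from 0.0503 to 0.0864). Ogdh and Mdh2, of the citric acid cycle, rose by 0.65 ± 0.05 and 0.88 ± 0.18.

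Fold changes differed by the length of the transcribed region. Genes up to 5 kb had a median log2 fold change of 0.15 (1333 genes, 12.5% higher and 7.20% lower). Without the ribosomal protein genes this median was 0.12. Genes of 20 to 50 kb had a median of 0.00 and those of 200 to 500 kb one of -0.11. Genes over 500 kb had a median of -0.37 (163 genes, 3.07% higher and 20.9% lower). Of the ribosomal protein genes 64 were at most 5 kb long. The part of gene length in the list results above was not tested.

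**Figure D5:**
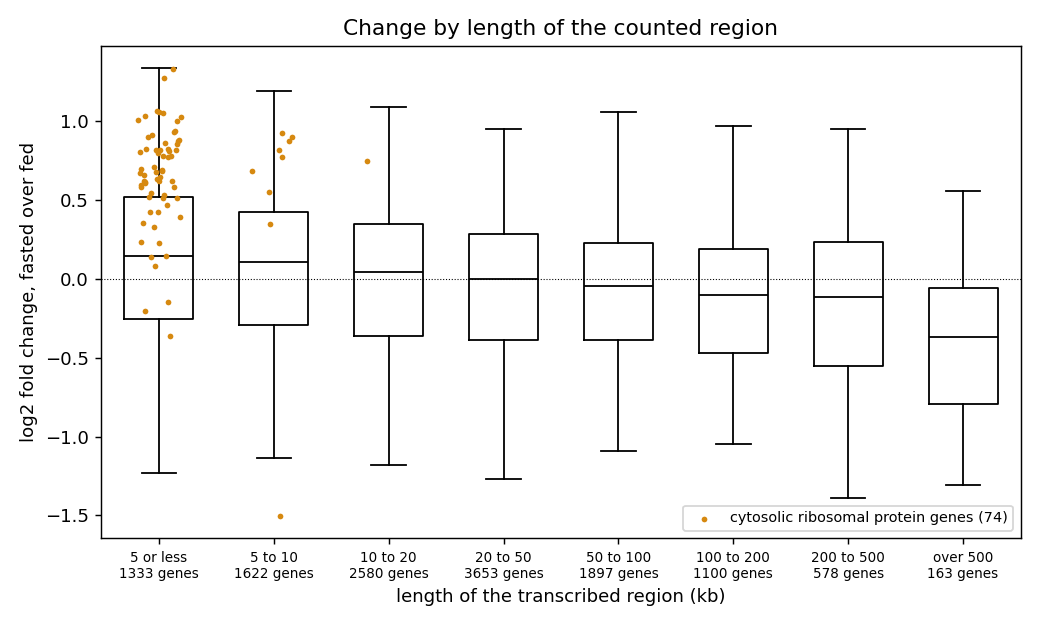
Log2 fold change, fasted over fed (y axis), of tested genes by length of the transcribed region in kb (x axis, genes per class below). Boxes show quartiles with the median, whiskers the central 90% of genes, and points the 74 cytosolic ribosomal protein genes, most of them in the shortest class and above 0.

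Among all genes with a mean of at least 1 CPM, several with the largest changes belonged to no metabolic list. Chrna4 (chromosome 2, 181022311 to 181039177), a subunit of nicotinic acetylcholine receptors, had 0.141, 0.253 and 0.214 CPM in fasted and 66.9, 58.3 and 21.1 CPM in fed libraries (log2 fold change -7.88 ± 0.56, adjusted p = 0.000345). Ntrk2, the receptor of the neurotrophin BDNF, had 9.8, 7.46 and 7.84 CPM in fasted and 106, 189 and 139.6 CPM in fed libraries (log2 fold change -4.11 ± 0.27, adjusted p = 0.000189). Every fasted library of Chrna4 was under 0.3 CPM. Gfra1, a co-receptor for the neurotrophic factor GDNF, rose instead and was abundant, with 2948, 2958 and 3897 CPM in fasted and 770.0, 844 and 917 CPM in fed libraries (log2 fold change 1.95 ± 0.15, adjusted p = 0.000854). A1bg, a plasma glycoprotein, had 2.07, 1.73 and 2.41 CPM in fasted and 102, 179 and 316 CPM in fed libraries (log2 fold change -6.59 ± 0.49, adjusted p = 0.00031). Fed C was the highest and fed A the lowest of the fed, both far above the fasted libraries. Ptgds, a prostaglandin D synthase, fell, at -5.42 ± 0.39, and Eci3, an enoyl-CoA isomerase with an overlapping gene on the other strand, at -4.83 ± 0.51. Slc22a26, an organic anion transporter, had 2.87, 2.28 and 6.86 CPM in fasted and 39.4, 76.6 and 218 CPM in fed libraries (log2 fold change -4.80 ± 0.86, adjusted p = 0.00421). Upwards, Mtl5 (a germline-linked protein) had 69.2, 36.6 and 58.6 CPM in fasted and 4.4, 1.48 and 2.43 CPM in fed libraries (log2 fold change 4.25 ± 0.52, adjusted p = 0.000854). Ttll8, a tubulin glycylase, had 6.44, 5.25 and 3.72 CPM in fasted and 0.235, 0.295 and 0.0201 CPM in fed libraries (log2 fold change 5.13 ± 0.74, adjusted p = 0.00171). The groups did not overlap in Slc22a26, Mtl5 or Ttll8. Dusp8, a MAP kinase phosphatase, rose by 4.17 ± 0.40 and Slc41a3, a magnesium transporter, by 4.08 ± 0.59. Among the most abundant called genes, Vwa8 rose by 1.16 ± 0.19 and Slc4a4, a sodium bicarbonate cotransporter, by 1.05 ± 0.12, while Wwox, a gene of great length, fell, at -1.03 ± 0.11. Rgn (regucalcin) had 11.5, 18.6 and 15.4 CPM in fasted and 89.1, 162 and 138 CPM in fed libraries (log2 fold change -3.09 ± 0.33, adjusted p = 0.000651).

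The share of genes called differed among lists known from other cells, where 22.6% of all tested genes were called. It was 50% of endothelial, 31.25% of stellate cell, 25% of cholangiocyte and 11.8% of Kupffer cell and macrophage markers. Of 9 tested lymphocyte markers 11.1% were called, and of cell cycle genes 40%. Of 20 endothelial markers 9 fell and 1 rose, with a median log2 fold change of -0.76. With any of the 6 libraries left out, 0 were called higher. The lower count was 1 without fasted C, 2 without fasted B, 3 without fed A or fed B and 5 without fasted A. Fcgr2b, an Fc receptor of sinusoidal endothelium, had 4.7, 4.37 and 4.17 CPM in fasted and 10.5, 12 and 10.3 CPM in fed libraries (log2 fold change -1.30 ± 0.08, adjusted p = 0.00195), against 115 CPM in fasted and 102 CPM in fed supernatant nuclei. Col3a1, a fibroblast collagen, had 1.22, 1.13 and 1.33 CPM in fasted and 3.91, 8.26 and 5.03 CPM in fed libraries (log2 fold change -2.20 ± 0.32, adjusted p = 0.00348), and supernatant had 13.8 CPM in fasted and 34.5 CPM in fed mice. Of 16 stellate cell markers 5 fell, or 3 without fasted A, B or C. Among 30 cell cycle genes 7 fell and 5 rose. Their lower count was 2 without fasted A or B and 3 without fasted C or fed A, and the higher count was 2 without fasted A and 3 without fasted B, fasted C, fed A or fed C. Mki67, the proliferation marker, had 0.658, 0.552 and 0.357 CPM in fasted and 1.91, 2.95 and 2.33 CPM in fed libraries (log2 fold change -2.17 ± 0.29, adjusted p = 0.0044) and 28.1 CPM in fasted and 57.7 CPM in fed supernatant nuclei. Top2a, the replication topoisomerase, fell, at -2.36 ± 0.33. Of 17 Kupffer cell and macrophage markers 1 rose and 1 fell, with a median of -0.58 and 4 above 0. The marker that fell, Mpeg1, had 1.76, 2.03 and 1.6 CPM in fasted and 3.88, 6.93 and 2.53 CPM in fed libraries (log2 fold change -1.26 ± 0.43, adjusted p = 0.041) and was lost without library fasted A, B or C or fed A or B (log2 fold change -1.37 to -0.83, adjusted p from 0.0688 to 0.12). The lower count was 0 without fasted A, B or C or fed B. Cd68, a macrophage protein, rose with 3.69, 2.62 and 3.34 CPM in fasted and 1.32, 0.959 and 1.18 CPM in fed libraries (log2 fold change 1.45 ± 0.19, adjusted p = 0.00712). Pkhd1, a gene of bile duct and kidney cilia listed as a cholangiocyte marker, had 268, 258 and 203 CPM in fasted and 532, 610.5 and 555 CPM in fed libraries (log2 fold change -1.22 ± 0.14, adjusted p = 0.0023). In supernatant it had 10.4 CPM in fasted and 11.7 CPM in fed mice, and of the defining duct markers Epcam stayed under 0.30 CPM in every frozen library.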

How the data were processed

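Hepatocyte nuclei were immunoprecipitated from frozen liver and their RNA sequenced without selection for poly-A, by a kit that keeps the strand, per the labels' protocols. The authors deposited raw counts per gene for 18 libraries. STAR 2.4.2a, DESeq2 1.24.0 and mm10 stand in the submitters' processing notes without their roles, and the counting tool and strand setting are not given in the sources used here. The table's gene length equals the span from start to end for all 20105 genes, so introns were counted. Without a known strand setting, reads of overlapping and antisense genes cannot be told apart. The authors' deposited table also gives log2 fold changes and adjusted p-values. It calls 5032 genes for this contrast, and 2880 of the 2918 called here are among them, all in the same direction. A further 6 columns of per-library values match no sample's labels and were not used. No label holds the column letters A, B and C, which therefore name a library of a group and no mouse.

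The 3 fasted and 3 fed libraries were compared with edgeR 4.0.16 in R 4.3.3 (TMM factors, filterByExpr, quasi-likelihood test, Benjamini-Hochberg adjusted p under 0.05). CPM of genes use the TMM factors, sums of cell type markers do not, and log2 CPM for the SE use a prior count of 2. P-values measure the spread between these 3 libraries a group. Totals of 13828945 to 49027343 counts set the precision, and DESeq2 1.42.0 served as an alternative beside other normalizations, filters, thinned counts, a fit over all 4 IP groups and each library left out. A setting without fed B and fasted A was added after seeing the data. Sequences and promoter windows are from RefSeq (GRCm38.p6), used where the window's start lay within 500 bases of the table's start. Scripts were tested on simulated data.

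The comparison, the gene lists and their members were chosen with earlier results of these data known. Genes named are the 15 with the largest fold change each way among called genes with a mean of at least 1 CPM and groups that do not overlap, up to 6 called members per list and direction, list members whose role is described, Sun1, the 10 most abundant called genes each way, and list members of 1 gene family that lie next to each other. Some genes of these lists are not reported here.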

Additional observations from a re-analysis of the deposited data

How the results depend on the processing

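No paired analysis was possible because fed and fasted libraries come from different mice. The count of 2918 called genes stayed within 1.5 times under other normalizations, filters, thinned counts, DESeq2 and the fit over all 4 IP groups (2640 to 3620 called). The fit over all 4 IP groups, with 3566 called, had no term for mouse. It took fresh and frozen libraries with the same title number as independent. With each library left out in turn, 1168 to 2271 genes were called, 525 to 1095 of them higher and 643 to 1176 lower. Without fed B and fasted A, a setting chosen after seeing the data, 700 were called, 283 higher and 417 lower. In these settings fewer samples entered the fit. Without genes whose level was higher in supernatant, 7114 genes were tested and 1943 called, 910 of them higher. Of 442 named genes that were called, none turned its direction under any setting that tested it, and DESeq2 ended none of these calls. Not every setting tested all 442, as the fit without genes higher in supernatant left out named markers of other cell types. A call that a setting did not test was not counted as lost, so the counts of lost calls are lower bounds. Without fasted A, 169 of these calls were lost, and 184 were lost without at least 1 of the libraries. Without fed B and fasted A together 265 were lost, and 274 were lost under at least 1 of all settings. The 265 included Cpt1a, Ehhadh, Lpin1, Fasn, Lepr, Ghr, Cyp7a1 and Otc. Some genes named as not past the threshold turned direction, and the cause was not tested. With each library left out in turn, the log2 fold change ran from -0.43 to 0.27 for Acot3, -0.035 to 0.35 for Acot4, -0.12 to 0.38 for Arntl, -0.14 to 0.11 for Bdh1, -0.62 to 0.42 for C3, -0.069 to 1.11 for Cyp8b1 and -1.11 to 0.12 for Eif4a1. It ran from -0.18 to 0.15 for Hlf, -0.43 to 0.037 for Hsd17b7, -0.84 to 0.90 for Igf1, -1.23 to 0.17 for Nr0b2, -0.095 to 0.062 for Nr1h4 and -1.58 to 1.05 for Socs2. C3, Igf1, Nr0b2 and Socs2 were positive only without fed C. Upper-quartile factors gave -0.0029 for Acot3 and -0.0059 for Bdh1, and the fit without genes higher in supernatant -0.0484 and -0.0455. Without fed B and fasted A, Bdh1 was at -0.138, Cdk8 at -0.101 and Eif4a1 at 0.112. The shallow fed B library limits what can be seen for genes of low count.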

Other observations

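Genes with 1 library apart from the others of its group were counted in every library, at 3-fold or more above or below both others among 11359 genes with a mean of at least 1 CPM. Fasted C had 27 such genes above and 38 below. Fasted A had 6 above and 4 below, and fasted B 4 above and 9 below. Fed A had 7 above and 7 below.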
